A study of Mus musculus with 4 samples.

Results

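The major histocompatibility complex (MHC) class II genes and the invariant chain gene were examined in cultured mouse pancreatic fibroblasts. The 7 genes were Cd74, H2-Aa, H2-Ab1, H2-Eb1, H2-DMa, H2-DMb1 and Ciita, out of 38921 gene intervals in the deposited tables. They were chosen by symbol and not by their values, though with earlier results of these data known. Each had 1 row per table. The series holds 4 libraries of poly-A RNA from fibroblasts that were grown out of the pancreas by a gravity separation method in medium with serum, 2 from wild type mice (here wild type 1 and 2) and 2 from KPC mice (KPC 1 and 2). KPC is the usual name of a pancreatic cancer model driven by Cre recombinase in an epithelial lineage of the pancreas. The labels give KPC without its alleles, its Cre driver or the age of the mice, and give the strain of all 4 libraries as mixed. The labels call the 2 libraries of a group biological replicates and do not say whether animals were pooled, so the p-values speak only of the spread among these 4 libraries, which may be technical.

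Class II molecules are surface heterodimers that show peptides from the endocytic route to CD4+ T cells. The alpha and beta chains assemble with the invariant chain, encoded by Cd74, which fills the groove until it is cut away. The DM heterodimer then helps exchange the last invariant chain fragment for peptide. Transcription of these genes depends on CIITA, a coactivator with no DNA binding of its own, which docks on RFX, CREB and NF-Y factors at the X and Y boxes of class II promoters. Dendritic cells, macrophages and B cells make class II constitutively or readily, interferon gamma induces it in many other cells, and a class II expressing fibroblast state has been described in pancreatic tumours.

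Ciita lies on chromosome 16 (10488179 to 10527564, mm10), 5 of the genes lie within the H2 complex on chromosome 17, and the place of Cd74 is given with its values. The deposited H2 intervals are H2-DMa (34135183 to 34139101), H2-DMb1 (34153073 to 34160223), H2-Ab1 (34263210 to 34269418), H2-Aa (34282745 to 34287827, the 1 on the minus strand) and H2-Eb1 (34305884 to 34316199). In GENCODE M21 all 7 are protein coding, and each deposited interval holds exons and introns. RefSeq promoter windows (GRCm38.p6) were at hand for 4 of the 7. Those of H2-DMa lie upstream of its deposited interval and hold none of the motifs below. The other 3 are shown because CIITA's partners bind boxes of this kind. Capitals mark the longest stretch that the 3 windows share before the start (TGATTGG, the Y box core), the longest that H2-Eb1 and H2-DMb1 share (AACTGATGATGCT, in the X box) and, in H2-Aa, the cyclic AMP response element TGACGTCA; the first 2 were found by this comparison and the third was searched by name. All are on the gene's strand, 5′ to 3′:
H2-Aa, chr17:34287857-34287912, minus strand: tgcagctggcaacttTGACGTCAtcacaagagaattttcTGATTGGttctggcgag
H2-Eb1, chr17:34305763-34305822, plus strand: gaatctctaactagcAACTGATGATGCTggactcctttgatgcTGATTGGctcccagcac
H2-DMb1, chr17:34153091-34153120, plus strand: tacctagtAACTGATGATGCTaggctgatt
The Y box core began 50 bases before the RefSeq start in H2-Aa, 61 in H2-Eb1 and 63 in H2-DMb1, where it lies a few bases past the stretch printed. The bases between the capitals of the upstream box and the Y box core numbered 16, 15 and 16. The H2-DMb1 stretch falls within its first GENCODE exon, which starts upstream of the RefSeq start, and the other stretches overlap no GENCODE exon. Searched on both strands of 32851 windows, TGATTGG occurred in 7.82%, TGACGTCA in 1.79% and AACTGATGATGCT in 3 windows (0.00913%), these being H2-Eb1, H2-DMb1 and Slc39a10. The motifs do not overlap each other. These matches describe the letters of the reference, not binding in these cells.

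Levels are given as CPM, read counts scaled to a common library size with TMM factors. The library totals ran from 22302141 counts in wild type 2 to 68312367 in KPC 2. With single libraries, 95% exact Poisson intervals and the floor of 3 counts cover counting error only. Low class II levels in a bulk culture cannot tell few expressing cells from little RNA per cell.

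Cd74, the invariant chain gene (chromosome 18, 60803849 to 60812646), had 0.361 and 1.65 CPM in the wild type pair (19 and 37 counts). In the KPC pair it had 10.5 and 3.89 CPM (619 and 264 counts). Both KPC libraries were above both wild type libraries, and KPC 1 was the highest. The wild type mean was 1.01 ± 0.915 CPM and the KPC mean 7.21 ± 4.69 CPM (SD, n = 2 for each). The log2 fold change was 2.91 ± 0.90 (SE), with a 95% interval of 0.57 to 5.26 and an adjusted p = 0.536 in edgeR's quasi-likelihood test, so Cd74 was not called.

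The classical alpha and beta chain genes were each low, and differed in which libraries were high. H2-Aa, the I-A alpha chain gene, had 0 and 4 counts in the wild type pair and 49 and 12 in the KPC pair. The 0 counts of wild type 1 put the 3-count floor at 0.0564 CPM and the exact Poisson upper limit at 0.0693 CPM (both unscaled), and the other 3 libraries stood at 0.179, 0.833 and 0.177 CPM. The CPM of KPC 2 was thus close to that of wild type 2, on 12 and 4 counts. Their exact Poisson intervals were wide, 0.0908 to 0.307 CPM in KPC 2 and 0.0489 to 0.459 CPM in wild type 2 (unscaled). KPC 1 was the highest, and the gene fell below the count filter and was not tested. H2-Ab1, the I-A beta chain gene, had 1.33 and 9.88 CPM in the wild type pair (70 and 221 counts), beside 7.80 and 7.70 CPM in the KPC pair (459 and 522 counts). Here wild type 1 alone was low, wild type 2 was the highest, and the groups overlapped. The log2 fold change was 0.49 ± 0.90 (SE), with an interval of -1.85 to 2.82 (adjusted p = 0.918, edgeR). H2-Eb1, the I-E beta chain gene, had 0.704 and 0.850 CPM in the wild type pair, beside 1.84 and 1.21 CPM in the KPC pair. These groups did not overlap, on 37, 19, 108 and 82 counts, and the log2 fold change was 0.98 ± 0.37 (SE), interval 0.02 to 1.94 (adjusted p = 0.571, edgeR).

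**Figure D1:**
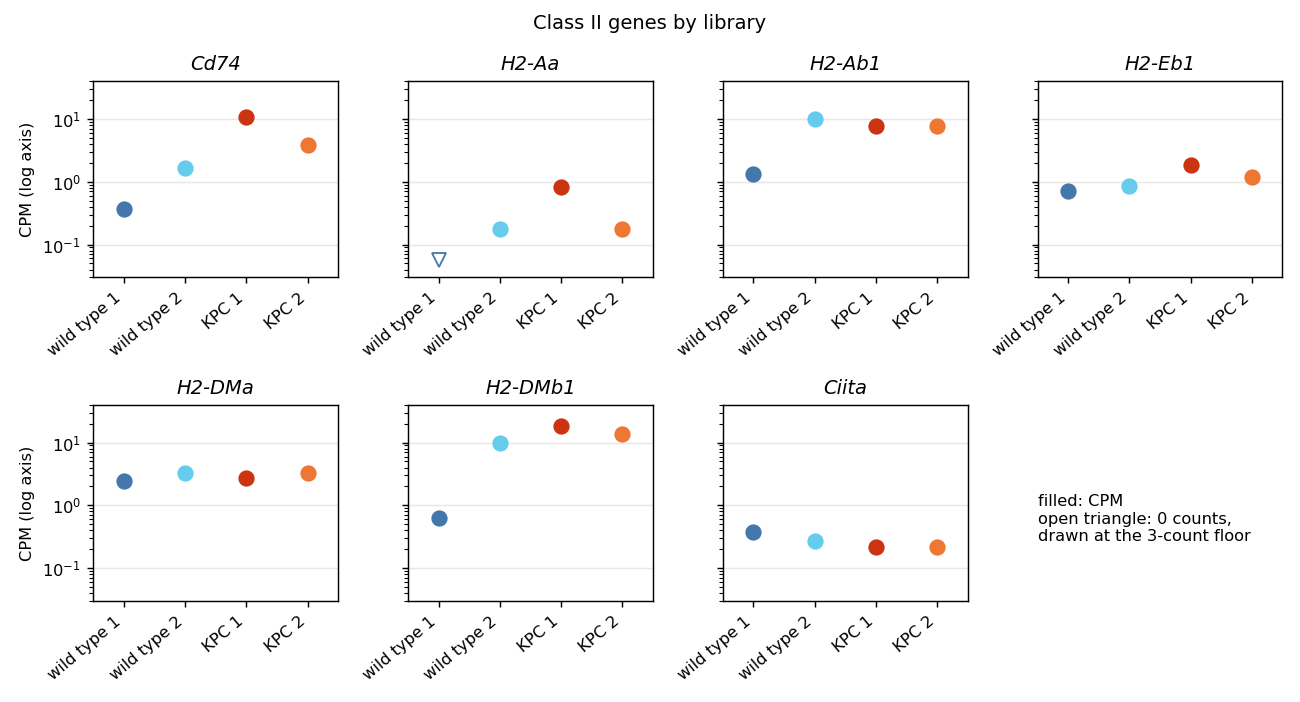
CPM of the 7 class II genes (log axis) in each of the 4 libraries, 1 point per library. Wild type 1 is the lowest library for 6 of the 7 genes, Ciita being the exception, as it is for 28.8% of all tested rows, and wild type 2 lies above both KPC libraries for H2-Ab1 (9.88 CPM), H2-DMa (3.26 CPM) and Ciita (0.268 CPM). The open triangle marks 0 counts of H2-Aa at the 3-count floor of 0.0564 CPM.

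The DM genes encode the heterodimer that edits the peptide cargo. H2-DMa had 2.44 and 3.26 CPM in the wild type pair, beside 2.69 and 3.23 CPM in the KPC pair, the narrowest range of the 7 genes on a ratio scale. The groups overlapped, the log2 fold change was 0.06 ± 0.30 (SE), and its interval ran from -0.72 to 0.84 (adjusted p = 0.977, edgeR). H2-DMb1 had 0.628 and 9.75 CPM in the wild type pair (33 and 218 counts), beside 18.6 and 13.8 CPM in the KPC pair (1093 and 937 counts). Both KPC libraries were above both wild type libraries, but the larger gap lay inside the wild type group, where wild type 2 was 15.5 times wild type 1. The log2 fold change was 1.67 ± 1.17 (SE), interval -1.37 to 4.72 (adjusted p = 0.723, edgeR).

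Ciita, the coactivator gene, had the lowest mean level per length of the 7 genes. It had 20, 6, 13 and 15 counts, or 0.380 and 0.268 CPM in the wild type pair beside 0.221 and 0.221 CPM in the KPC pair. Both KPC values were below both wild type values, but the exact Poisson interval of wild type 2, 0.0987 to 0.586 CPM before TMM scaling, covers all 4 levels. The log2 fold change was -0.59 ± 0.43 (SE), interval -1.70 to 0.51 (adjusted p = 0.7296, edgeR). The Ciita interval shares 25033 bases with that of Dexi on the other strand, which had 223 to 598 counts, and no strand is stated for the counting.

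Of the 6 genes tested, 0 were called at an adjusted p of 0.05 by edgeR, as were 0% of all 23046 rows in either direction. Cd74 and H2-Eb1 had an unadjusted p under 0.05 (0.0245 and 0.0469), and 4.73% of all rows did so on the higher side (3.94% on the lower). limma voom called 0 members, and DESeq2 called Cd74 (adjusted p = 0.0269) where it called 1.44% of rows higher and 1.28% lower. Cd74, H2-Eb1 and H2-DMb1 had both KPC values above both wild type values, as did 20.6% of all tested rows, and Ciita had both below, as did 20.5%. The median log2 fold change of the 6 genes was 0.73, beside -0.01 over all tested rows. With a library left out, the median of the members tested in that fit ran from 0.56 (without KPC replicate 1) to 2.54 (without wild type replicate 2). The members that passed the filter were not the same 6 in every such fit, so this range also holds changes of the set.

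The log2 fold changes moved with single libraries. Without wild type replicate 2, edgeR called H2-Ab1 (log2 fold change 2.54, adjusted p = 0.0268) and H2-DMb1 (4.69, adjusted p = 0.0131) higher in KPC, with 1.79% of all rows (1.69% were called lower), and Cd74 was at 4.31 (adjusted p = 0.0741). Without wild type replicate 1, H2-Ab1 turned to -0.35, H2-DMb1 came to 0.73 and Cd74 to 2.12, none of them called. Without KPC replicate 1, Cd74 came to 2.01 and H2-Eb1 to 0.65. Each such fit has 1 group of a single library, which is assumed to vary like the other group.

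**Figure D2:**
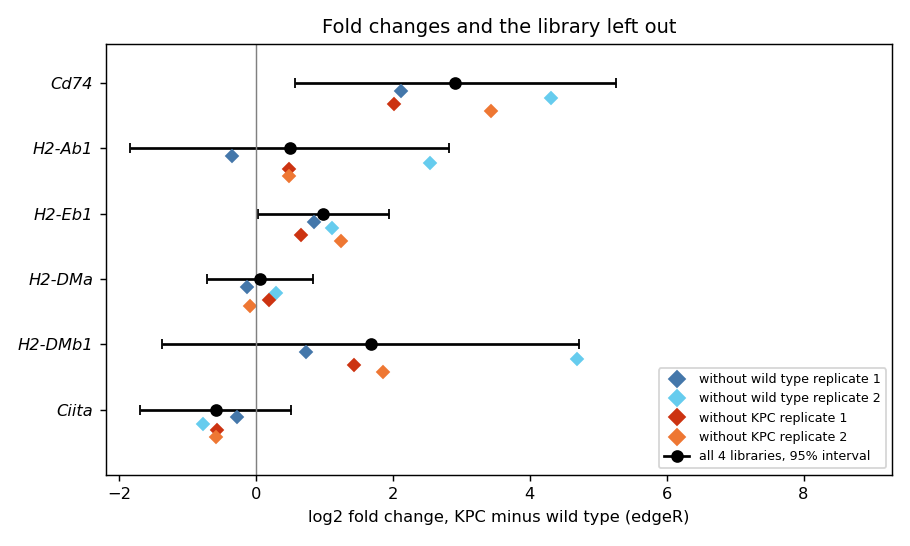
Log2 fold change of KPC against wild type for the 6 tested genes, with edgeR's 95% interval from all 4 libraries (black) and the estimate with each library left out (diamonds). The intervals of Cd74 and H2-Eb1 lie above 0, and leaving out wild type 2 or wild type 1 moves H2-Ab1 between 2.54 and -0.35.

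Covered bases, the number of positions in an interval with at least 1 read, showed whether counts were piled on a short stretch. A row with a single count most often covered 37 bases. Reads of that length spread evenly over the 1409 exon bases of the Cd74 reference transcript would have covered 554 and 876 bases in the wild type libraries, where 428 and 740 were covered. In KPC 1 and KPC 2, 1553 and 1471 bases of Cd74 were covered, slightly more than the exons of that transcript. The 49 counts of H2-Aa in KPC 1 covered 871 bases, 96.6% of the even value, so they were not piled on 1 short stretch. Its 4 counts in wild type 2 covered 111 bases, 80.0% of the even value, and its 12 counts in KPC 2 covered 281 bases, 76.6%. H2-Eb1 covered between 577 and 1240 bases, from 100.7% to 114.5% of the even value. H2-DMa covered 1393, 1095, 1392 and 1382 bases, all below the 1554 exon bases of its reference transcript in the interval. The counts of Ciita covered 222 to 563 bases, 83.6% to 102.9% of the even value.

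H2-Ab1 covered 995, 1296, 1610 and 1530 bases, and in 3 libraries this passed the 1210 exon bases of its reference transcript, reaching 133.1% of them in KPC 1, so some counts lie in other exons or in introns. H2-DMb1 covered 693 bases in wild type 1 and 1434, 1392 and 1500 in the others. Wild type 2, with 218 counts, therefore covered as much of H2-DMb1 as KPC 1 with 1093 counts, both near its 1396 exon bases. Put in place of counts, covered bases gave a log2 ratio of 0.92 for Cd74, 0.49 for H2-Eb1 and -0.042 for H2-DMb1; once a gene is covered end to end this measure can grow no further.

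**Figure D3:**
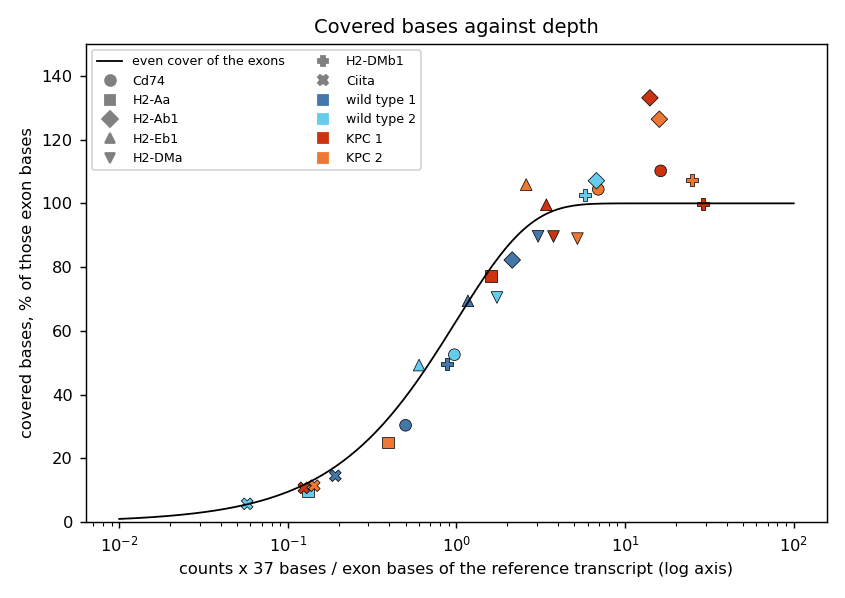
Covered bases as a percentage of the exon bases of each gene's reference transcript, against depth (counts times 37 bases, divided by those exon bases, log axis), 1 point per gene and library, with the line for evenly spread reads. Points follow the line up to about full cover, and H2-Ab1 in KPC 1 lies farthest above it, at 133.1%.

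Reads that match several places could enter more than 1 row, so the 37-base words of each gene's GENCODE transcripts were looked up in all other transcripts. H2-DMb1 shared 28.3% of its words with its neighbour H2-DMb2, and H2-DMa shared 8.97% of its own with Brd2. The GENCODE gene H2-DMa starts at 34119541, upstream of its deposited interval, which no other deposited interval overlaps. Whether the words shared with Brd2 lie inside the counted interval was not tested. For Ciita 2.26% of words were shared, most of them with Dexi, whose interval overlaps its own, and the other 4 genes shared at most 0.829%. H2-DMb2 itself had 0.380 and 3.40 CPM in the wild type pair, beside 7.00 and 5.38 CPM in the KPC pair, in the order of H2-DMb1. The H2-DMb1 count was 1.65, 2.87, 2.65 and 2.57 times that of H2-DMb2, and the gene that the shared reads came from cannot be told apart here. The microRNA interval Mir5107 lies inside Cd74 and had 0, 0, 13 and 6 counts.

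Per kilobase of exon the genes ranked H2-DMb1, H2-Ab1, Cd74, H2-DMa, H2-Eb1, H2-Aa and Ciita, with means over the 4 libraries of 7.66, 5.52, 2.92, 1.87, 0.982, 0.264 and 0.0705 CPM per kb. The ranges of all neighbours in this order overlapped across libraries. Within every library, however, H2-DMa stood above H2-Eb1, and H2-Eb1 above H2-Aa. Ciita was the lowest in every library except wild type 1, where H2-Aa had 0 counts. The I-A chains were far from equal. Per kb, H2-Ab1 was 51.5 times H2-Aa in wild type 2, 8.73 times in KPC 1 and 40.5 times in KPC 2. These ratios rest on the 4, 49 and 12 counts of H2-Aa. Which H2 haplotypes the mixed-strain cultures carried is not given in the sources used here. The DM chains changed order. H2-DMb1 was at 0.287 times H2-DMa per kb in wild type 1 and at 3.32, 7.70 and 4.76 times in wild type 2, KPC 1 and KPC 2. Cd74 was at 0.233 and 0.144 times H2-Ab1 per kb in wild type and at 1.16 and 0.434 times in KPC.

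The DNA-binding partners of CIITA had small log2 fold changes. All 7 genes of RFX, NF-Y and CREB subunits were tested, 0 were called by edgeR, and 0 had an unadjusted p under 0.05. Their log2 fold changes ran from -0.19 (Rfx5) to 0.23 (Rfxank), with a median of 0.01, or -0.13 without wild type replicate 2. Rfxank, an RFX subunit gene, had 21.5 and 22.8 CPM in the wild type pair, beside 24.5 and 27.5 CPM in the KPC pair. Rfx5 stood at 3.14 and 2.42 against 2.86 and 2.04 CPM, Rfxap at 9.26 and 8.59 against 8.18 and 8.27 CPM, and the NF-Y subunit gene Nfya at 14.8 and 10.5 against 13.7 and 13.1 CPM.

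Of the other class II chain genes, 1 of 5 with a row was tested, H2-DMb2. H2-Oa, H2-Ob and H2-Eb2, which encode DO chains and a second E beta chain, had at most 5 counts in any library. H2-Ea-ps, the E alpha locus that is a pseudogene in the reference strain, had 0 counts in all 4 libraries, where the 3-count floor was 0.0439 CPM in KPC 2 and 0.135 CPM in wild type 2 (unscaled).

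Genes of invariant chain processing and class II turnover differed in both directions, and 0 of 6 tested were called. Ctss, the protease gene for the late cleavage of the invariant chain in antigen-presenting cells, had 28.7 and 44.6 CPM in the wild type pair, beside 130.4 and 214 CPM in the KPC pair (log2 fold change 2.23, edgeR adjusted p = 0.284). The asparaginyl endopeptidase gene Lgmn stood at 53.8 and 50.5 against 108 and 153 CPM (1.32, adjusted p = 0.308), and the cathepsin gene Ctsl at 169 and 310.2 against 476 and 422 CPM. March1, which encodes a ubiquitin ligase that removes class II from the surface, was lower in both KPC libraries, at 25.9 and 31.8 against 15.8 and 16.2 CPM (-0.85, adjusted p = 0.395). In this list 4 of 6 genes were higher and 1 was lower in both KPC libraries, and the median was 0.78, or 1.35 without wild type replicate 2. Ctss and Lgmn are expressed by macrophages too, whose markers are given below.

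The interferon gamma list had a median log2 fold change of 0.02, with 7 of 14 tested genes positive and 0 called, and the median ran from -0.16 (without KPC replicate 2) to 0.28 (without wild type replicate 2). Ifng itself had 0 counts in all 4 libraries, a value singled out after it was seen. Irgm1, an interferon-induced GTPase gene, had 25.8 and 20.1 CPM in the wild type pair, beside 11.2 and 10.6 CPM in the KPC pair. Irf8, a myeloid transcription factor gene, had 0.989 and 1.74 CPM beside 4.06 and 8.21 CPM, the feedback inhibitor gene Socs1 had 0.761 and 0.760 against 1.89 and 1.33 CPM, and the kinase gene Jak2 had 19.8 and 23.5 against 28.3 and 29.2 CPM. MHC class I presentation genes had a median of 0.17, with 8 of 12 positive, 3 higher and 3 lower in both KPC libraries and 0 called. That median was 0.016 without wild type replicate 1 and 0.0075 without KPC replicate 2. Erap1, which trims class I peptides, had 6.68 and 8.01 CPM beside 12.3 and 11.6 CPM, the immunoproteasome gene Psmb8 had 3.14 and 10.6 against 14.2 and 24.4 CPM, and the light chain gene B2m had 158 and 155 against 110.1 and 112 CPM. The peptide transporter gene Tap1 stood at 9.99 and 9.62 against 5.15 and 7.24 CPM.

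Co-stimulatory and co-inhibitory ligands, which tune the T cell response to class II, had a median of 0.37, with 3 of 6 positive and 0 called. That median was -0.06 without wild type replicate 1, -0.16 without KPC replicate 2 and 0.95 without wild type replicate 2. Cd274, which encodes PD-L1, had 0.742 and 1.34 CPM in the wild type pair, beside 3.09 and 2.70 CPM in the KPC pair (log2 fold change 1.503, edgeR adjusted p = 0.459). Pdcd1lg2, which encodes PD-L2, had 0.552 and 0.850 CPM beside 0.340 and 0.310 CPM, and the co-stimulator gene Cd86 had 0.400 and 1.07 against 1.24 and 2.26 CPM. The ligand gene Icosl stood at 0.418 and 0.537 against 0.561 and 1.31 CPM.

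Markers of other cell types differed between the libraries as well. The 7 class II genes summed to 5.84 and 25.9 CPM in the wild type pair, beside 42.5 and 30.2 CPM in the KPC pair. All 17 macrophage markers were higher in both KPC libraries, with a median log2 fold change of 2.96 and 0 called by edgeR. That median was 4.46 without wild type replicate 2 and 2.19 without wild type replicate 1. The macrophage markers summed to 80.2, 287, 1176 and 2389 CPM. Lyz2, C1qa, Laptm5 and C1qb had the most counts of that list, and Lyz2 stood at 6.24, 132, 629.5 and 1416 CPM. As a share of the macrophage sum, the 7 genes came to 7.29%, 9.003%, 3.61% and 1.27%. The share of the sum was smaller in both KPC libraries, but single genes differed. The share of Cd74 was 0.451%, 0.576%, 0.895% and 0.163%, the highest in KPC 1, as was that of H2-Aa, at 0%, 0.0623%, 0.0708% and 0.00741%.

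The 4 libraries took the same order in the class II sum as in the epithelial and mesothelial sums, which share Krt8, Krt18 and Krt19. Among the class II genes, Cd74, H2-Eb1 and H2-DMb1 took this order. The dendritic sum took it too, but Itgax was the only 1 of its 5 tested genes higher in KPC. The share of all rows in this order was not computed. The epithelial markers summed to 31.8, 427, 1183 and 433.5 CPM, with 3 of 9 higher in both KPC libraries, and the mesothelial markers to 46.7, 340, 1184 and 360 CPM, with 4 of 9. Krt8 stood at 0.400, 146, 490 and 85.1 CPM, Krt18 at 21.1, 134, 465 and 121 CPM, and Cdh1, the E-cadherin gene, at 0.818, 18.9, 81.5 and 29.4 CPM. Krt8 and Krt18 were higher in wild type 2 than in KPC 2, and other markers also departed from the order of the sums. The keratin gene Krt7 stood at 1.54, 42.8, 37.9 and 116 CPM, Epcam at 0.190, 13.6, 5.41 and 18.1 CPM, Cldn4 at 0.228, 44.6, 8.40 and 16.8 CPM, and the mesothelial list's Slpi, a secreted inhibitor gene, at 1.41, 15.2, 57.0 and 88.5 CPM. Epcam, Cldn4 and Msln, the mesothelin gene, were named after their values were seen, and Msln stood at 0.837, 8.72, 76.7 and 17.2 CPM. Cd74, H2-Aa, H2-Eb1 and H2-DMb1 were highest in KPC 1, as were Krt8, Krt18, Krt19, Cdh1 and Msln, whereas Krt7, Epcam and Slpi were highest in KPC 2 and Cldn4 in wild type 2. The dendritic list's Itgax and the macrophage list's Mrc1 were also highest in KPC 1, and the other macrophage markers were highest in KPC 2.

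Dendritic cell markers were sparse. Their sum was 8.69, 10.2, 14.7 and 12.4 CPM, and of the 5 tested 1 was higher and 2 were lower in both KPC libraries. The integrin gene Itgax, which macrophages also express, stood at 0.514, 1.25, 8.87 and 5.72 CPM, whereas Flt3 stood at 2.87 and 2.64 against 1.87 and 2.12 CPM and Zbtb46 at 3.25 and 4.52 against 2.92 and 3.27 CPM. Cd209a, named after its values were seen, had 1 count in all, in KPC 1. B cell markers summed to 2.57, 3.35, 2.74 and 3.69 CPM. Endothelial markers summed to 622 CPM in wild type 1 and to 34.5, 15.9 and 24.9 CPM in the other libraries, so wild type 1, the library with the lowest class II sum, had the highest here. All 7 were lower on the log2 scale in KPC and 0 were called. Fibroblast markers summed to between 10220 and 12050 CPM in all 4, led by Col1a1, Col1a2, Vim and Col3a1. The part of these other cell types in the class II levels was not tested.

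**Figure D4:**
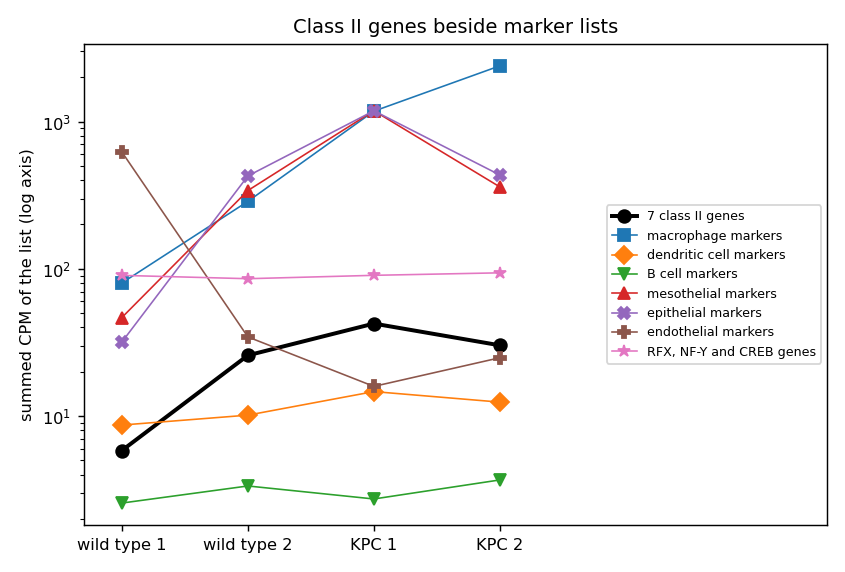
Summed CPM (log axis) of the 7 class II genes and of 7 gene lists in each library, with lines joining the values of 1 list. The class II sum runs from 5.84 to 42.5 CPM in the library order of the epithelial and mesothelial sums, while the macrophage sum is highest in KPC 2, at 2389 CPM. The dendritic sum has the class II order too, with Itgax the only 1 of its 5 tested genes higher in KPC.

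H2-DMb1 had the most counts of the 7 genes, 2281, and served as reference for genes of like pattern. Over the 4 libraries, and among 18302 other rows at a mean of 1 CPM or more, the smallest root mean square distances in centred log2 CPM were those of Gm12505 (0.059), Prss46 (0.109), Slc22a28 (0.142), Gm15250 (0.171) and Zfp493 (0.177). Gm12505 stood at 2.85, 39.5, 79.1 and 54.1 CPM, and its 4652 counts in KPC 1 covered 808 of 8399 bases. Slc22a28 had 4625 counts on 1172 of 69773 bases in KPC 1. The cover of the exons of these rows was not computed. H2-DMb2 was not among the 5. Of the 5 other tested genes of the 7, Cd74 came nearest to H2-DMb1, at 0.743, with 126 rows nearer, followed by H2-Ab1 at 0.877, and Ciita was the farthest, at 2.19.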

How the data were processed

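The authors deposited 1 table per library, with no header, giving position, symbol, read count, covered bases, interval length and covered fraction for 38921 intervals. The deposited counts are whole numbers with unequal totals, taken as raw, and the deposited fraction equals covered bases divided by interval length. Per the submitters' processing notes, the tools were TopHat2 2.0.3, FastQC 0.10.1, bedtools and SAMtools 0.1.18, on mm10/GRCm38, with no roles given. Aligner settings and strand are not given in the sources used here. Totals are sums over rows and can count a read more than once.

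KPC was compared with wild type by edgeR 4.0.16 in R 4.3.3 on all rows that passed filterByExpr (minimum count 10), with TMM factors from 0.988 to 1.02, a two-sided quasi-likelihood test and Benjamini-Hochberg adjustment over 23046 rows at 0.05. Libraries of a group differed by a chi-square per degree of freedom of 147 (wild type) and 80.9 (KPC), more than counting noise alone, which does not tell separate cultures from separate preparations. An exact permutation test of 2 against 2 cannot reach 0.05 and was not run. SE is the unshrunk log2 fold change over the square root of F, and intervals use 2 residual and 2.76 prior degrees of freedom. Log2 CPM used a prior count of 2. Per kb values and even cover use the GENCODE M21 transcript with the longest coding sequence, within the deposited interval. Alternatives were other scaling factors and filters, DESeq2 1.42.0, limma 3.58.1 (voom), a replicate block, each library left out and covered bases. The fit was tested on simulated counts that gave all rows of a run the same dispersion. Spread that differs between rows was therefore not simulated. Figures used matplotlib 3.10.9.

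The members and lists were chosen with earlier results of these data known. Named were all members, up to 4 genes per pathway list by smallest p, up to 4 per marker list by counts, and the 5 rows nearest in pattern to the member with the most counts. Some marker genes that the rule takes are not described. Some items are not reported here.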

Additional observations from a re-analysis of the deposited data

How the results depend on the processing

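The wild type libraries held 19 to 37 counts of Cd74, at most 20 of Ciita and at most 4 of H2-Aa. With 2 libraries a group, small differences in these genes were not detectable at this depth and with this spread between libraries. edgeR's 0 rows higher and 0 lower became 333 and 294 with DESeq2, and ran from 0 to 429 higher and 0 to 406 lower with a library left out, the highest without wild type replicate 2; without wild type replicate 1 there were 5 lower. Members called higher numbered 1 with DESeq2 and from 0 to 2 with a library left out. The cause was not tested. H2-Ab1 ran from -0.35 (without wild type replicate 1) to 2.54 with a library left out. H2-DMa ran from -0.14 to 0.283 with a library left out and reversed sign with upper quartile factors (-0.0031), without wild type replicate 1 (-0.14), without KPC replicate 2 (-0.085) and with covered bases (-0.16), as did H2-DMb1 with covered bases (-0.042). Cd74, H2-Eb1 and Ciita kept their sign under all alternatives that gave a value. Labels give both groups the numbers 1 and 2, and deviations of same-numbered libraries correlated at 0.136 over tested rows, which does not pair 2 numbers. With the replicate block edgeR called 0 rows higher and 0 lower, and Cd74 was at 2.99 (adjusted p = 0.574) and H2-DMb1 at 2.58. Each of the 7 genes had 1 row, so the sum of rows was not run. Ciita had no value with the filter of 1 CPM in 2 libraries.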
